A study of Canis lupus familiaris with 6 samples.

Results

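The genes described here are 8 regulators of apoptosis, BCL2, BCL2L1, MCL1, BCL2L11, BID, BAK1, CASP8 and CASP9, which were chosen by symbol and make up 8 of the 35993 genes in the gene table. The working name of the group spoke of executioner caspases, but CASP8 and CASP9 are initiator caspases. CPEK cells, an established line of canine epidermal keratinocytes labelled as wild type, were treated directly with cold atmospheric microwave plasma (CAMP) for 30 s (dCAMP, 3 libraries) or with the gas without plasma (gas control, 3 libraries). The medium was renewed after 15 min, RNA was taken 24 h later, and stranded mRNA libraries were sequenced. Both groups were grown in serum-containing medium, and the model is a single keratinocyte line in a monolayer at 1 time point.

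In the intrinsic pathway of apoptosis, proteins of the BCL2 family decide whether the outer mitochondrial membrane is opened. The survival proteins BCL2, BCL-xL (the product of BCL2L1) and MCL-1 hold back the pore-forming effectors BAX and BAK, and BH3-only proteins such as BIM (from BCL2L11) and BID relieve that block or activate the effectors. Cytochrome c that leaves the mitochondria drives assembly of the apoptosome, which activates caspase 9, whereas caspase 8 is activated at death receptors and can cleave BID, and either initiator then activates the executioner caspases. In the epidermis these proteins balance the survival of basal keratinocytes against their loss. Much of this control, such as cleavage of BID and of the caspases, acts on protein and is not read by mRNA counts.

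The libraries held 43084921 to 54082634 gene counts each. Single-gene levels are given as CPM, which is read counts scaled to a common library size with edgeR's TMM factors, and differences as the log2 fold change of dCAMP over gas from edgeR's quasi-likelihood test on the 14708 genes that passed a filter on low counts. The 9 keratinocyte markers were found in every library, with a summed level of 48908 to 58826 CPM in the gas and 45370 to 48226 CPM in the dCAMP libraries. Of the 9, 5 had an unadjusted p under 0.05 in edgeR, against 20.7% of all genes tested. Markers of other cell types were at low levels: 1.602 to 2.17 CPM in gas and 1.35 to 1.77 CPM in dCAMP for fibroblasts (3 of 6 at 0), 0.456 to 0.843 and 0.604 to 0.841 CPM for melanocytes (3 of 5 at 0), and 1.87 to 2.23 and 1.42 to 3.03 CPM for leukocytes (PTPRC and CD3E at 0). The endothelial list, with PECAM1 at 0, summed to 15.6 to 18.4 CPM in gas and 18.8 to 24.7 CPM in dCAMP. Of the markers tested, 2 of 3 endothelial, 1 of 2 fibroblast, 1 of 2 melanocyte and 0 of 2 leukocyte genes had an edgeR unadjusted p under 0.05. The part of the keratinocyte and endothelial shifts in the results below was not tested. The gas libraries stood apart from each other: on the first principal component, which held 71.2% of the variance, gas 1, 2 and 3 lay at −94.08, −23.01 and 21.67 and the dCAMP libraries at 28.63 to 33.57. As these are bulk samples, fewer cells of a type and less RNA per cell cannot be told apart. The labels do not say that the libraries came from separate cultures, so p-values measure the spread between these samples, which may be technical.

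All 8 genes passed the filter, and MCL1 was 1.49-fold higher in dCAMP-treated cells (95% interval 1.09 to 2.04). CASP8 and BID were also higher and BAK1 was lower, each without overlap of the groups but with an unadjusted p over 0.05. BCL2, BCL2L1, BCL2L11 and CASP9 had overlapping groups. With Benjamini-Hochberg adjustment in edgeR, 0 of the 8 genes had an adjusted p under 0.05, the smallest being 0.221. The share of all genes tested that passed this rule was also 0%, and 3040 of them had an unadjusted p under 0.05. At an unadjusted p under 0.05, 1 of the 8 genes passed, against 20.7% of all genes tested (6.81% higher and 13.9% lower in dCAMP). DESeq2 also gave 1 of 8 at an unadjusted p and 0 of 8 after adjustment. None of the 8 reached a 2-fold difference with an unadjusted p under 0.05, a rule that 1.09% of the genes tested met. Groups that did not overlap were seen for 3 genes higher in dCAMP and 1 lower, where the shares over all genes tested were 19.0% and 20.9%. The median log2 fold change of the 8 genes was 0.01, and over all genes tested it was 0.03.

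**Figure D1:**
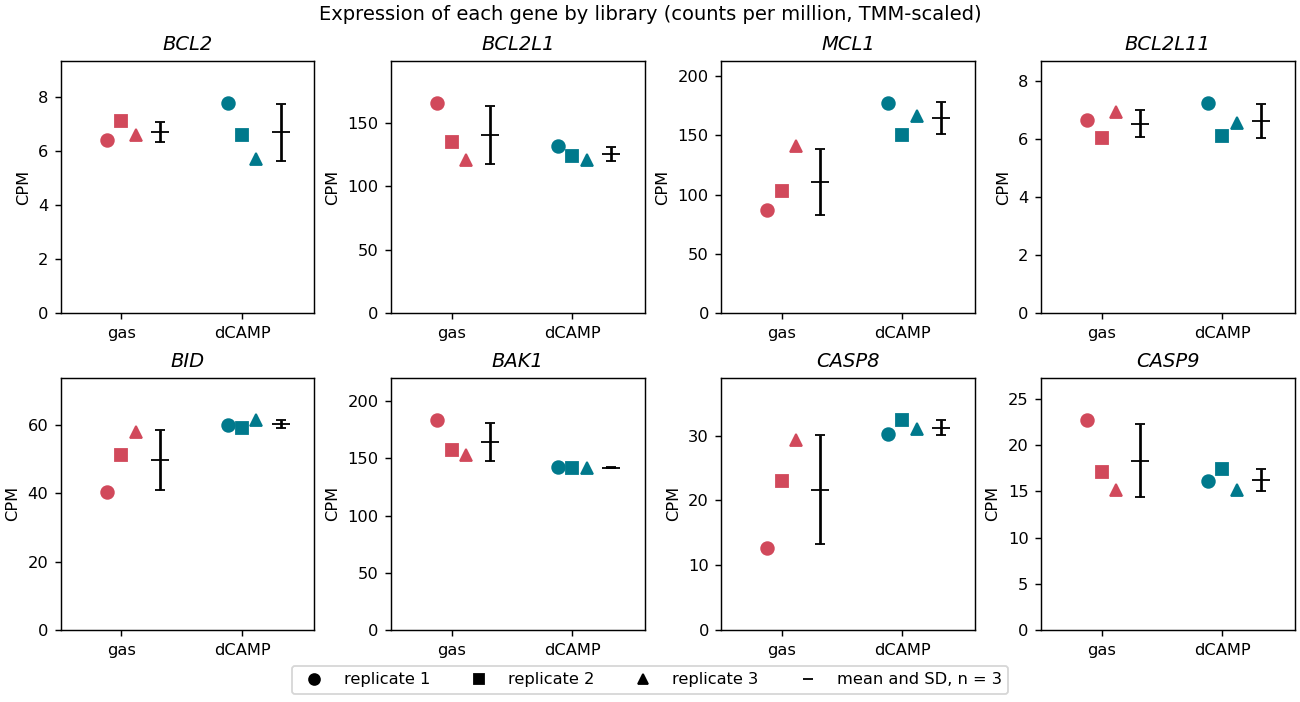
Level in CPM (vertical axes from 0) of each of the 8 genes in the 3 gas and 3 dCAMP libraries; points are libraries, with the marker giving the replicate number, and bars show the mean ± SD (n = 3). MCL1 lies at 86.8 to 141.1 CPM in gas and 149.9 to 177.2 CPM in dCAMP, whereas the BCL2 groups overlap.

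Among the survival genes, MCL1 encodes a short-lived protein that sequesters BAK and BIM, and it lies on chromosome 17 at 59759605 to 59763111 (CanFam3.1, gene 403537). Its level was 86.8, 103.2 and 141.1 CPM in gas libraries 1, 2 and 3 and 177.2, 149.9 and 166.5 CPM in the dCAMP libraries. Every dCAMP library was above every gas library, and gas 3 was the gas library nearest to them. The means were 110.4 ± 27.8 CPM in gas and 164.5 ± 13.7 CPM in dCAMP (SD, n = 3 each). The log2 fold change was 0.58 with an SE of 0.19, an unadjusted p of 0.0202 and, in edgeR, an adjusted p of 0.221. By its p, MCL1 stood at place 1325 among the 14708 genes tested. The unadjusted p was over 0.05 without dCAMP 1 (0.0655), dCAMP 3 (0.0512) or gas 2 (0.0641). Without gas 3 the log2 fold change was 0.75 and edgeR's adjusted p 0.0206, in a fit where 4953 genes of the table passed. With limma's voom and sample quality weights it was 0.68 with an adjusted p of 0.000222, where 8944 genes passed.

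BCL2L1, which encodes the survival protein BCL-xL, lies on chromosome 24 at 21145214 to 21209425 (gene 403618). Its level was 165.4, 134.7 and 120.5 CPM in gas and 131.5, 123.5 and 120.8 CPM in dCAMP. Gas 1 was the highest library, and gas 3 was below all 3 dCAMP libraries. The means were 140.2 ± 23.0 and 125.3 ± 5.55 CPM (SD, n = 3 each), and the log2 fold change of −0.16 (SE 0.13, 95% interval −0.48 to 0.15) had an unadjusted p of 0.259.

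BCL2, the founding survival gene of the family, lies on chromosome 1 at 13733849 to 13900653 (gene 403416). It was measured at 6.42, 7.10 and 6.58 CPM in gas and 7.77, 6.60 and 5.69 CPM in dCAMP. The dCAMP libraries lay on both sides of the gas libraries. The means of 6.70 ± 0.36 and 6.69 ± 1.04 CPM (SD, n = 3 each) gave a fold of 0.998 with a 95% interval of 0.780 to 1.28. The locus holds 4 other annotated genes, of which the most abundant had 8 to 30 counts per library against 257 to 374 for BCL2.

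BAK1 encodes BAK, an effector that forms pores in the outer mitochondrial membrane, and lies on chromosome 12 at 2950359 to 2957604 (gene 481744). Its level was 183.5, 157.3 and 152.6 CPM in gas and 142.3, 141.2 and 141.4 CPM in dCAMP. All gas libraries were above all dCAMP libraries, and the dCAMP libraries were nearly the same. The means were 164.5 ± 16.7 and 141.7 ± 0.591 CPM (SD, n = 3 each). The log2 fold change was −0.22 (SE 0.10), with an unadjusted p of 0.0622 and an adjusted p of 0.253 in edgeR. Without gas 3 it was −0.31 with an adjusted p of 0.0488. BAX, the other effector, was at 43.4, 36.1 and 31.3 CPM in gas and 34.0, 34.0 and 36.6 CPM in dCAMP, and its groups overlapped (log2 fold change −0.08, unadjusted p = 0.574).

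BID encodes a BH3-only protein that links death receptors to mitochondria once caspase 8 has cut it, and lies on chromosome 27 at 45344304 to 45355735 (gene 100683675). Its level was 40.4, 51.3 and 57.9 CPM in gas and 59.99, 59.2 and 61.5 CPM in dCAMP. The dCAMP libraries were all above the gas libraries, with gas 3 the closest to them. The means were 49.9 ± 8.84 and 60.2 ± 1.21 CPM (SD, n = 3 each), and the log2 fold change was 0.27 (SE 0.14, unadjusted p = 0.106). The end of the gene overlaps BCL2L13, itself a BCL2-related gene with 5160 to 7461 counts per library against 1870 to 3071 for BID. How reads in that stretch were assigned is not given in the sources used here.

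BCL2L11 encodes BIM, a BH3-only protein able to bind every survival protein named here, and lies on chromosome 17 at 35619804 to 35665782 (gene 612867). Its level was 6.65, 6.04 and 6.94 CPM in gas and 7.25, 6.11 and 6.55 CPM in dCAMP. The groups overlapped throughout, with means of 6.54 ± 0.46 and 6.64 ± 0.57 CPM (SD, n = 3 each). The log2 fold change was 0.02 (SE 0.12, 95% interval −0.28 to 0.32).

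CASP8, the initiator caspase recruited to death receptors, lies on chromosome 37 at 10362071 to 10402108 (gene 488473). Its level was 12.7, 23.0 and 29.3 CPM in gas and 30.2, 32.4 and 31.0 CPM in dCAMP. Gas 1 was far below every other library, whereas gas 3 was just under the lowest dCAMP library. The means were 21.7 ± 8.397 and 31.2 ± 1.11 CPM (SD, n = 3 each). The log2 fold change of 0.53 (SE 0.29) was close in size to that of MCL1 but with a wider 95% interval of −0.17 to 1.22, and the unadjusted p was 0.116. Without gas 1 the log2 fold change was 0.24, and without gas 3 it was 0.76. The groups were apart in CPM but not in the deposited FPKM, where gas 3 at 14.0 lay within the dCAMP range of 13.4 to 14.3.

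CASP9, the initiator caspase of the apoptosome, lies on chromosome 2 at 82033759 to 82076710 (gene 487432). Its level was 22.7, 17.1 and 15.1 CPM in gas and 16.1, 17.5 and 15.2 CPM in dCAMP. Gas 1 was the highest library, and the other gas libraries lay within or just under the dCAMP range. The means were 18.3 ± 3.95 and 16.3 ± 1.16 CPM (SD, n = 3 each), and the log2 fold change was −0.17 (SE 0.17, unadjusted p = 0.355).

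The position of each gas library against the dCAMP mean was then compared across the 8 genes. On the scale of log2 CPM relative to the dCAMP mean, MCL1 was at −0.92, −0.67 and −0.22 in gas 1, 2 and 3, CASP8 at −1.30, −0.44 and −0.09, and BID at −0.58, −0.23 and −0.06. BAK1 was at 0.37, 0.15 and 0.11, BCL2L1 at 0.40, 0.10 and −0.06, and CASP9 at 0.48, 0.07 and −0.10. In these 6 genes gas 1 was the farthest from the dCAMP mean. Gas 3 was the nearest of the gas libraries in 6 of the 8 genes, as it was in 68.9% of all genes tested, and gas 1 was the farthest in 6 of 8, as it was in 74.3% of all genes. The SD of log2 CPM was larger among the gas than among the dCAMP libraries for 6 of the 8 genes, for example 0.62 against 0.05 for CASP8 and 0.14 against 0.006 for BAK1. BCL2 (0.08 against 0.22) and BCL2L11 (0.10 against 0.12) had the smaller SD in gas. Over all genes tested, the median SD was 0.24 in gas and 0.08 in dCAMP.

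**Figure D2:**
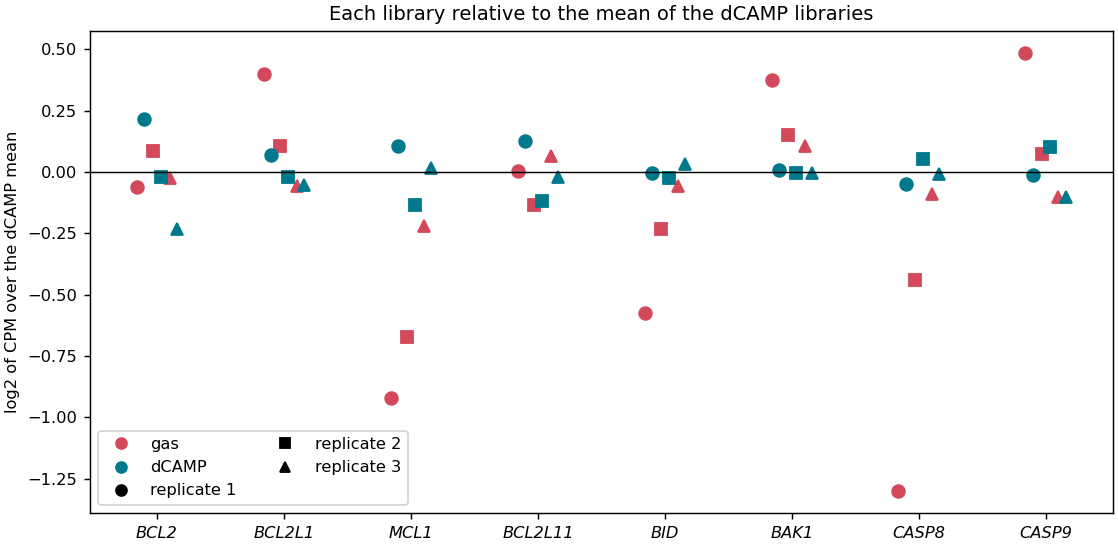
Log2 CPM of each of the 8 genes in each library relative to the mean of the 3 dCAMP libraries (0 on the axis); points are single libraries. Gas 1 lies farthest from 0 for MCL1, CASP8, BID, BAK1, BCL2L1 and CASP9, from −1.30 for CASP8 to 0.48 for CASP9, and gas 3 is the nearest gas library in 6 of the 8 genes.

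Levels of different genes were compared in FPKM, which is scaled per transcript length. Averaged over the 6 libraries, the order was BAK1 (63.5 FPKM), MCL1 (45.6), BCL2L1 (40.1), BID (23.6), CASP8 (12.4), CASP9 (11.1), BCL2 (4.41) and BCL2L11 (1.75). BAK1 stood at percentile 91.9 of the genes tested and BCL2L11 at percentile 28.8. The ranges of neighbours in this order overlapped for MCL1 and BCL2L1 and for CASP8 and CASP9, and not for the other neighbours. BAK1 and MCL1 came as close as 58.4 FPKM each in dCAMP 1. MCL1 exceeded BCL2L1 in 4 of 6 libraries, and CASP8 exceeded CASP9 in 5 of 6.

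The order of the survival genes differed between libraries. The ratio of MCL1 to BCL2L1 in FPKM was 0.604, 0.830 and 1.24 in gas 1, 2 and 3 and 1.53, 1.36 and 1.43 in the dCAMP libraries. BCL2L1 was the more abundant transcript in gas 1 and gas 2, and MCL1 in the other 4 libraries. MCL1 made up 35.7%, 42.7% and 52.7% of the summed FPKM of BCL2, BCL2L1 and MCL1 in gas and 57.4%, 54.9% and 56.5% in dCAMP. That sum was 82.7, 79.8 and 87.6 FPKM in gas and 101.7, 91.1 and 97.9 FPKM in dCAMP. Divided by BAK1, it was 1.06, 1.23 and 1.39 in gas and 1.74, 1.55 and 1.68 in dCAMP, with no overlap of the groups. MCL1 and BAK1 each separated the groups alone, in opposite directions, so this ratio restates those differences. BAX, the other effector, is not part of it. Divided by the sum of BID and BCL2L11, the survival sum was 4.25, 3.40 and 3.34 in gas and 3.71, 3.36 and 3.49 in dCAMP, with overlap. For the initiators, the ratio of CASP8 to CASP9 was 0.417, 1.15 and 1.47 in gas and 1.40, 1.24 and 1.37 in dCAMP, so that only gas 1 stood apart. These ratios are given as descriptions, with no test.

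**Figure D3:**
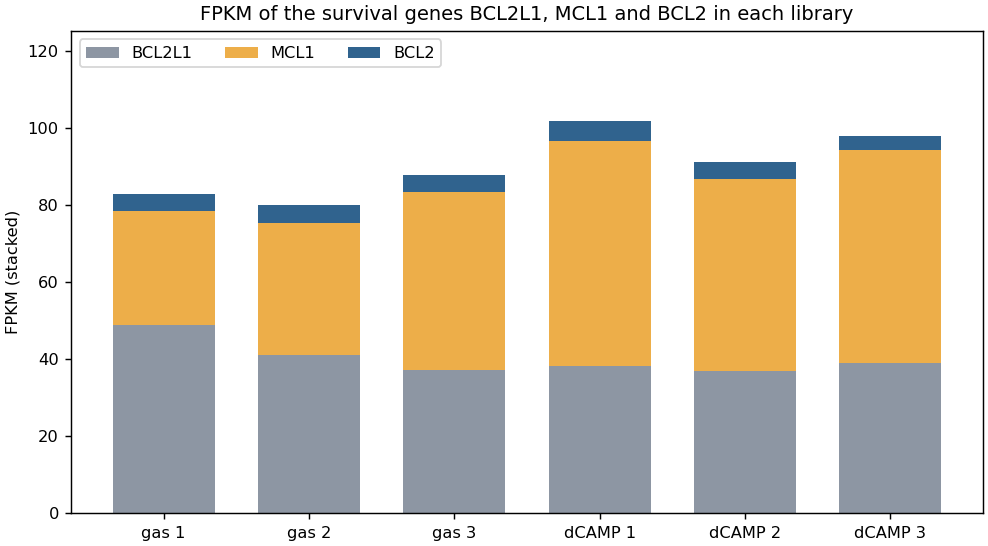
Summed FPKM of the survival genes BCL2, BCL2L1 and MCL1 in each library, stacked by gene on an axis from 0. The MCL1 share is 35.7% in gas 1 and 57.4% in dCAMP 1, while BCL2 stays a thin layer of 3.75 to 5.09 FPKM.

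The other genes of the pathway were described from role lists holding 38 symbols, of which 36 were found and 33 passed the filter. The symbols TNFRSF10A and TNFRSF10B were not analysed here, and BCL2L10, HRK and FASLG had at most 7 counts in any library. Of the 33 genes, 17 were higher and 16 lower in dCAMP, with a median log2 fold change of 0.0026. At an unadjusted p under 0.05, 2 were higher and 7 lower (27.3%, against 20.7% of all genes), and 0 had an adjusted p under 0.05 in edgeR. DESeq2 on all 36 genes gave 9 at an unadjusted p and 1, BIRC3, after adjustment (0.0486), and on genes with a count in every library 9 and 0, with BIRC3 at an adjusted p of 0.0773. The edgeR count at an unadjusted p was 4 without dCAMP 1, without dCAMP 3 or without gas 2, 19 without gas 3, and 24 with voom and sample quality weights. The split by direction moved too, to 9 higher and 10 lower without gas 3 and to 12 and 12 with voom and sample quality weights. The share of all genes at an unadjusted p was not counted in these other fits. After adjustment, 4953 of 14975 genes of the table passed without gas 3, and 8944 of 14708 with voom and sample quality weights. The higher pathway counts in these 2 fits therefore cannot be read as particular to the pathway. By role, and with the 8 genes included, the share at an unadjusted p under 0.05 was 1 of 5 for survival genes, 0 of 3 for effectors, 1 of 7 for BH3-only genes, 0 of 5 for the apoptosome and initiator caspases, 1 of 5 for the genes of the execution phase, 1 of 4 for proteins released from mitochondria, 2 of 5 for inhibitor of apoptosis proteins and 4 of 7 for death receptors and adaptors. Of the 33 genes, 6 were higher and 9 lower in dCAMP without overlap of the groups. Over all genes tested, the shares were 19.0% and 20.9%. Apart from CASP6, the genes described next were chosen for an unadjusted p under 0.05, a choice that favours groups without overlap. Some genes without overlap at a larger p are not named. All values that follow for the pathway genes are in CPM, with log2 fold changes from edgeR.

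Among genes of the execution phase, CASP6, a caspase that cuts proteins such as the nuclear lamins, was at 65.1, 73.2 and 74.1 CPM in gas and 71.9, 79.9 and 79.9 CPM in dCAMP. Its groups overlapped, with means of 70.8 ± 4.92 and 77.2 ± 4.60 CPM (SD, n = 3 each) and a log2 fold change of 0.13 (unadjusted p = 0.242). DFFA, the inhibitor and chaperone of the nuclease that cuts DNA in apoptosis, was at 51.8, 47.4 and 40.4 CPM in gas and 35.7, 34.5 and 34.0 CPM in dCAMP (log2 fold change −0.42, unadjusted p = 0.0111). ENDOG, listed among the proteins released from mitochondria, encodes an endonuclease and was at 7.54, 8.24 and 5.54 CPM in gas and 4.64, 4.95 and 4.71 CPM in dCAMP (−0.57, unadjusted p = 0.0142). For DFFA and ENDOG, every gas library was above every dCAMP library.

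At the death receptors, TNFRSF1A encodes a receptor for TNF, and TRADD and FADD are adaptors that connect such receptors to signalling and to caspase 8. TNFRSF1A was at 104.1, 88.5 and 76.7 CPM in gas and 74.9, 66.6 and 67.3 CPM in dCAMP (log2 fold change −0.37, unadjusted p = 0.0313). FADD (105.3, 88.1 and 84.1 CPM in gas; 73.9, 71.4 and 72.5 CPM in dCAMP) and TRADD (52.6, 49.8 and 42.6 CPM in gas; 36.2, 41.3 and 35.7 CPM in dCAMP) had log2 fold changes of −0.35 and −0.36, and that of FADD was −0.54 with the gene length correction. In all 3 genes the gas libraries lay above the dCAMP libraries. CFLAR encodes FLIP, a relative of caspase 8 that blocks its activation at the receptor. It was at 23.7, 26.4 and 32.8 CPM in gas and 39.9, 34.4 and 39.0 CPM in dCAMP, higher in every dCAMP library (0.45, unadjusted p = 0.0221).

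Among the inhibitor of apoptosis proteins, BIRC3, a ubiquitin ligase of TNF receptor complexes, was at 17.7, 19.1 and 21.0 CPM in gas and 24.5, 28.8 and 26.9 CPM in dCAMP (log2 fold change 0.47, SE 0.12, unadjusted p = 0.00622). With the gene length correction its log2 fold change was 0.29. BIRC5, or survivin, which also acts in mitosis, was at 209.3, 211.1 and 200.8 CPM in gas and 166.6, 178.4 and 175.0 CPM in dCAMP (−0.26, unadjusted p = 0.0117). BIRC3 was higher and BIRC5 lower in every dCAMP library than in every gas library. BAD, a BH3-only gene whose product is controlled by phosphorylation, was at 28.4, 24.3 and 22.8 CPM in gas and 19.3, 19.5 and 19.6 CPM in dCAMP (−0.37, unadjusted p = 0.0178). Of the 9 genes, 7 had an edgeR adjusted p of 0.221, TRADD of 0.224 and TNFRSF1A of 0.226.

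**Figure D4:**
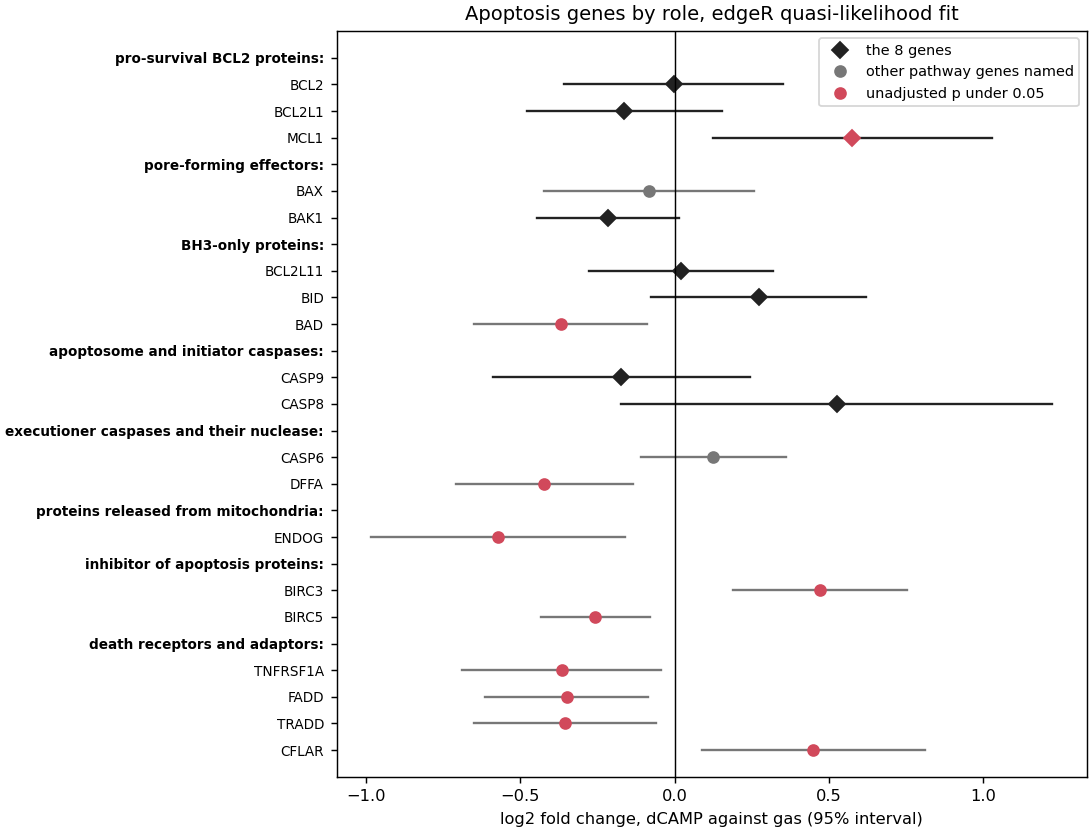
Log2 fold change of dCAMP over gas with its 95% interval for the 8 genes (diamonds) and 11 of the other apoptosis genes tested (circles), namely BAX, CASP6 and those with an unadjusted p under 0.05, ordered by role; red marks an unadjusted p under 0.05. MCL1 (0.58), BIRC3 (0.47) and CFLAR (0.45) are the red symbols to the right of 0, with 7 to the left.

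The transcript table was used to see which annotated models carried the counts. The 8 genes had 46 models, of which 23 passed the filter and 6 were at 0 in all libraries. BCL2, MCL1 and BID have 1 model each. At an unadjusted p under 0.05, 1 of the 23 models passed in edgeR, against 8.59% of the 30886 transcripts tested. It was the model of MCL1, with a log2 fold change of 0.57 and an unadjusted p of 0.0266. After adjustment 0 of the 23 passed in edgeR, as did 0% of all transcripts. DESeq2, which tested 40 of the 46 models, gave 5 at an unadjusted p and 0 after adjustment. The edgeR count was 4 without gas 3, 3 without dCAMP 2, 2 without dCAMP 1, and 0 without dCAMP 3, gas 1 or gas 2. The share of all transcripts at an unadjusted p was not counted for DESeq2 or for these fits without 1 library.

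Most BCL2L1 counts lay on models X1 and X2. Model X1, of 3165 bases, held 60.01%, 44.7% and 46.1% in gas and 55.7%, 63.5% and 44.4% in dCAMP. Model X2, of 3147 bases, held 33.2%, 41.7% and 35.7% in gas and 37.3%, 30.2% and 40.3% in dCAMP, so neither share separated the groups. A minor model, X3 of 2796 bases, was singled out after its values were seen. It had 192, 173 and 155 counts in gas and 67, 7 and 49 counts in dCAMP, lower in every dCAMP library (log2 fold change −1.90, SE 0.79, unadjusted p = 0.057, edgeR adjusted p = 0.586). Its share of BCL2L1 was at most 2.51% in any library. Another minor model, X4 of 2682 bases, was likewise singled out after its values were seen, and was lower in every dCAMP library. It had 40, 95 and 73 counts in gas and 14, 0 and 0 in dCAMP (log2 fold change −3.28, SE 1.54, edgeR unadjusted p = 0.081, adjusted p = 0.608). Its share of BCL2L1 was at most 1.34% in any library, and its dCAMP counts were at or near 0, so the size of this fold change is poorly determined. How often the groups were apart over all transcripts tested was not counted.

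For CASP8 the leading model differed between libraries. Model X1, of 2081 bases, held 43.6%, 4.71% and 33.5% of the counts in gas and 35.9%, 78.4% and 61.8% in dCAMP. The RefSeq curated model, of 1471 bases, held 28.5%, 74.3% and 35.8% in gas and 29.1%, 3.24% and 1.997% in dCAMP. In both models the groups' shares overlapped, and the unadjusted p was 0.0758 for X1 and 0.230 for the curated model. These models differ in length, which enters FPKM. BCL2L11 had 3 of 13 models tested, and the leading one, X4 of 3377 bases, held 51.0%, 87.1% and 84.2% in gas and 63.1%, 64.9% and 57.8% in dCAMP. In BAK1, model X4 of 2137 bases held at least 98.9% of the counts in every library. The curated model of CASP9, of 1354 bases, held 83.7%, 96.4% and 92.4% in gas and 95.99%, 92.9% and 99.1% in dCAMP. The split of reads between models that share exons is an estimate.

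**Figure D5:**
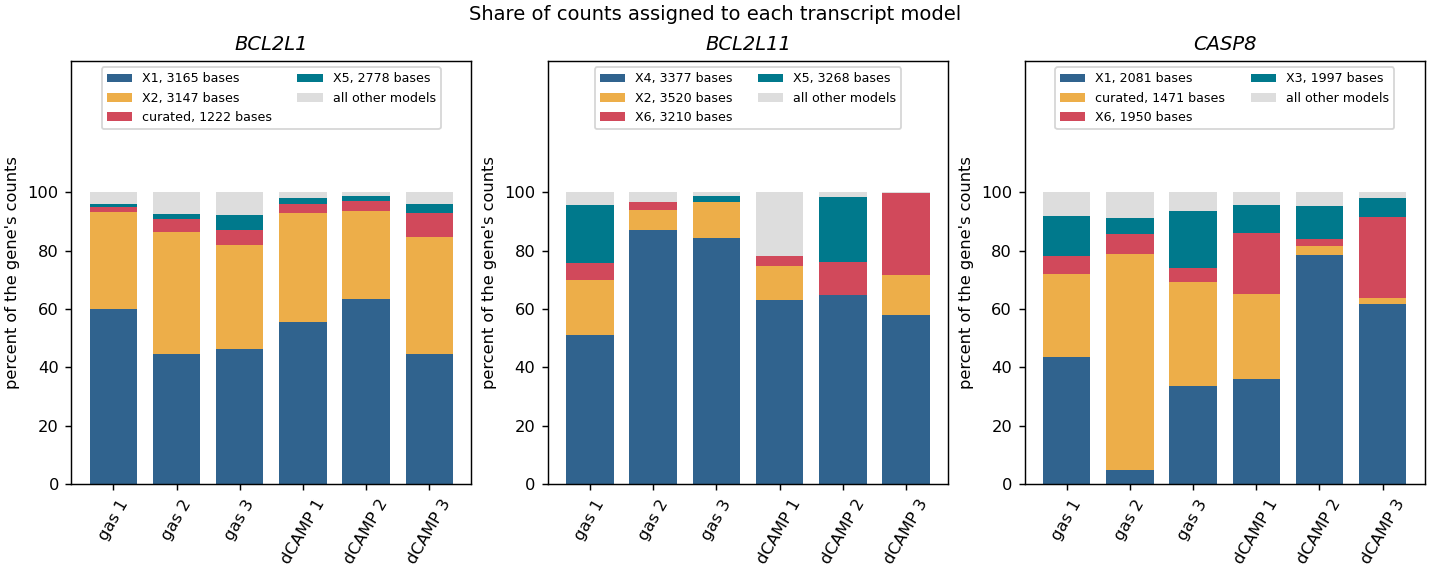
Percent of the counts of BCL2L1, BCL2L11 and CASP8 assigned to each annotated transcript model in the 6 libraries, stacked to 100%. The leading CASP8 model differs between libraries, with X1 at 4.71% in gas 2 and 78.4% in dCAMP 2.

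The tested gene whose pattern over the 6 libraries was most like that of each of the 8 genes was found by the root mean square difference of centred log2 CPM. For BCL2L1 it was GFOD2, at a difference of 0.006, for BAK1 it was MTOR, at 0.011, for CASP8 it was DHX29, at 0.018, and for BID it was TSG101, at 0.019. Within a wider distance of 0.1 lay 1915 genes for BCL2L1, 2757 for BAK1, 762 for BID and 370 for CASP8. The spread of the genes themselves around their own mean was 0.158 for BCL2L1 and 0.134 for BAK1, not far above that distance, and 0.471 for CASP8. For MCL1 and BCL2, 86 and 62 genes lay within 0.1, the nearest being IDNK at 0.053 and FICD at 0.047. BCL2L11 was nearest to LOC102157188 (0.020) and CASP9 to LOC102152648 (0.029). IDNK was at 1.38, 1.75 and 2.17 CPM in gas and 2.89, 2.29 and 2.68 CPM in dCAMP, with the same order of libraries as MCL1. The 6 points share libraries and depth, so these likenesses are descriptions.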

How the data were processed

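RNA-Seq was carried out on 3 gas-treated and 3 dCAMP-treated CPEK libraries. The authors removed adapters, contaminant DNA and duplicates (FastQC 0.11.7, Trimmomatic 0.38), mapped to CanFam3.1 with HISAT2 2.1.0 and summarized known transcripts with StringTie 2.1.3b. The deposited read counts are whole numbers without normalization. The FPKM columns, as deposited, relate those counts to the length of the transcript and the mapped reads of the library. The deposited TPM columns were not used. The annotation release and the treatment of overlapping genes are not given in the sources used here. Rows without a symbol (24, at most 0.0264% of counts) stayed in the table that was fitted, but could not be chosen by symbol. A count of 0 leaves room for 3 counts, a limit on counting error alone.

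The tests used R 4.3.3 and edgeR 4.0.16: TMM factors, filterByExpr, a prior count of 2 and the quasi-likelihood test without covariates, fitted to the whole gene table (14708 tested) and the whole transcript table (30886 tested) with Benjamini-Hochberg adjustment. CPM uses the normalized library size. Standard errors were derived from the fold change and the F statistic. The selection in the study's methods, a difference of 2-fold or more at an unadjusted p under 0.05, was also counted. The study's results section instead names an adjusted p under 0.05 with the same fold. On simulated data for 14708 genes with 200 changed 3-fold at a dispersion of 0.05, edgeR recovered 95% with 9 false calls. In the deposited libraries the median SD of log2 CPM was 0.24 in gas and 0.08 in dCAMP, and the fold of MCL1 was 1.49. Smaller folds and a spread that differs between the groups were not simulated. The 95% therefore does not give the power to detect differences of the size described here.

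Alternatives were DESeq2 1.42.0 (once restricted to genes counted in all libraries, minimum 1), RLE factors, no filter, a gene length correction (lowess, span 0.3), the replicate number as a block, both together, voom with sample quality weights in limma 3.58.1, limma-trend on log2-transformed FPKM with a pseudocount of 1 or 0.1, and leaving out each library.

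The 8 genes and the role lists were chosen with earlier results of these data known. By the naming rule, all 8 genes, CASP6 and BAX are named, other listed genes at an unadjusted p under 0.05, the models with the highest mean count, and the gene with the closest pattern to each of the 8. The BCL2L1 models X3 and X4 were named outside this rule. All 8 symbols were found in the reference gene table; coordinates come from the transcript table, in CanFam3.1. No sequence of these genes was used here. Some listed genes that the rule names are not reported here.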

Additional observations from a re-analysis of the deposited data

How the results depend on the processing

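With limma's voom and sample quality weights, 4 of the 8 genes had an unadjusted and also an adjusted p under 0.05 (against 1 and 0 in edgeR): MCL1 (log2 fold change 0.68), BID (0.235, adjusted p 0.00346), BAK1 (−0.15, adjusted p 0.00701) and CASP8 (0.44, adjusted p 0.00194). The same fit gave 24 of the 33 other pathway genes at an unadjusted p and 22 after adjustment, and 8944 in the whole table. DESeq2 gave 301 genes after adjustment in the whole table, or 161 with at least 1 count in every library, 1 pathway gene after adjustment, and 5 transcripts at an unadjusted p. On log2 FPKM plus 0.1, 3 genes of the table passed. The cause was not tested.

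Leaving out 1 library at a time gave 0 to 5 of the 8 genes at an unadjusted p and 0 to 2 after adjustment, 4 to 19 and 0 to 15 of the pathway genes, 0 to 4953 genes of the table and 0 to 4 transcripts. All these highest values came without gas 3, where MCL1 and BAK1 had an adjusted p under 0.05. The share of all genes at an unadjusted p under 0.05 was counted only for the edgeR fit of the main results, at 20.7%. For the table as a whole, 1 gene passed without gas 1 and 0 in the remaining 4 fits. Log2 fold changes ranged from −0.1241 to 0.0681 for BCL2, −0.31 to −0.05 for BCL2L1, 0.41 to 0.75 for MCL1, −0.0616 to 0.0474 for BCL2L11, 0.12 to 0.35 for BID, −0.31 to −0.15 for BAK1, 0.24 to 0.76 for CASP8, −0.34 to −0.01 for CASP9 and −0.2374 to 0.0293 for BAX. The sign turned for BCL2 without dCAMP 3 or gas 2, for BCL2L11 without dCAMP 1, dCAMP 3 or gas 2, and for BAX without gas 1. The length correction turned BCL2 to 0.0302 and BCL2L11 to −0.0936.

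With the replicate number as a block, MCL1 had a log2 fold change of 0.60 (unadjusted p 0.0239), and the block kept 1 of the 8 genes at an unadjusted p and 0 after adjustment. Of the 33 other pathway genes the block gave 4 higher and 7 lower at an unadjusted p. The block with the length correction gave 2 of the 8, MCL1 and CASP8 (0.63, unadjusted p 0.0468), with BCL2 at 0.0198 and BCL2L11 at −0.0936, and 4 higher and 4 lower of the pathway genes. In that fit the unadjusted p was over 0.05 for BIRC3 (0.101), BIRC5 (0.122), BAD (0.0806) and TRADD (0.0728). Same-numbered libraries deviated together with correlations of 0.13, 0.02 and 0.05, so the pairing was not established and the samples share only a number. With 3 libraries a group, the intervals given set the size of difference that could be seen.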
